A study of Mus musculus with 4 samples.

Results

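The genes described here are 10 members of the Hippo pathway and its output: Ccn1 (formerly Cyr61), Ccn2 (named Ctgf in the platform table), Thbs1, Ankrd1, Axl, Amotl2, Lats2, Ajuba, Yap1 and Tead1. They were chosen by name, as familiar targets and regulators of the coactivators YAP and TAZ, out of 30142 genes with a row that carries exactly 1 gene symbol, and each was read from its brightest row. Each of the 10 had a single such row. RNA was hybridised to 4 Affymetrix MTA-1_0 arrays with a single label, 2 of Glut1-deficient (KO) and 2 of wild-type (WT) primary keratinocytes from mice 1 week old with a C57BL/6J strain background, 4 mice per genotype. The KO mice lacked the glucose transporter Glut1 in keratinocytes only, and the labels do not name the promoter that drives the deletion. All cultures of both genotypes grew in a serum-free keratinocyte medium with 0.05 mM CaCl2, 5 ng/ml EGF, hydrocortisone, insulin and pituitary extract, were reseeded after 3 days at 2000000 cells on collagen-coated plates and were lysed the next day. Each array holds RNA of 2 plates of a genotype that were joined at random, so the p-values measure the spread between 2 pools per genotype, which may be technical in part. With 4 arrays the precision is limited.

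In the Hippo pathway the kinases MST1 and MST2, encoded by Stk4 and Stk3, activate LATS1 and LATS2, which phosphorylate YAP and TAZ and keep them out of the nucleus. When this brake is off, YAP and TAZ enter the nucleus, bind the TEAD transcription factors and switch on genes such as Ccn1, Ccn2 and Ankrd1. In the epidermis YAP is best known for its role in the proliferating basal layer, where it responds to cell density, adhesion to the matrix and tension of the actin cytoskeleton. Activity of YAP is set largely by phosphorylation and location of the protein, which an array of RNA does not measure.

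Slc2a1, which encodes Glut1, had log2 signals of 12.09 and 12.01 on the KO arrays, against 13.26 and 13.40 on the WT arrays (log2 fold change -1.28, SE 0.10, limma adjusted p = 0.00754). That call was lost without KO replicate 1 (adjusted p = 0.0508). Of 9 keratinocyte markers Krt5, Krt14, Itga6, Itgb4 and Col17a1 lay far above the background floor on every array, and Krt15 and Krt1 lay near it. The floor is the 95th percentile of 23 background control rows and ran from 4.36 to 4.87 on the 4 arrays. The keratinocyte markers summed to 18.72 to 18.99 on the log2 scale on the KO arrays, against 19.30 to 19.41 on the WT arrays, and 1 of the 9, Col17a1, was called lower. In 8 of the 9, all but Trp63, the signal was lower in KO cells, and 5 had an unadjusted p under 0.05 in limma's test. Krt5 and Krt14 passed as lower after quantile normalization (adjusted p = 0.0354 and 0.0403). Itgb4 did so when only the brighter rows were tested (0.0413) and in a block that paired the arrays crosswise (0.0469). Over all named rows the arrays correlated at 0.997 between the KO arrays, 0.998 between the WT arrays and 0.989 to 0.992 across genotypes. Genes were called changed at a Benjamini-Hochberg adjusted p under 0.05 over all 30604 rows, and every fold change below is KO minus WT on the log2 scale with limma's moderated standard error (SE).

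TEAD factors bind a short motif, GGAATG or its reverse complement CATTCC. RefSeq promoter windows were held for 7 of the 10 genes, namely Ccn1, Ankrd1, Axl, Amotl2, Lats2, Ajuba and Yap1. The motif was found on either strand within the 250 bases before the gene start in 6 of these 7 genes, while 12.6% of all 32851 promoter windows held it. That share counts windows, and the 7 genes have 8, since Lats2 has 2 starts. The genes were chosen as familiar targets and regulators of YAP and TAZ. A share above that of all windows may follow from this choice. The promoters below are shown because 3 of them, those of Ccn1, Amotl2 and Ajuba, belong to genes whose signal was lower in KO cells. That of Ankrd1 holds the motif at 2 places, and that of Yap1 belongs to the coactivator gene itself, whose signal did not pass the test. Each runs 5′ to 3′ on the gene's own strand over the 250 bases before the gene start, from RefSeq on GRCm38.p6, with each motif match in capitals. They lie at chr3:145649986-145650235, minus strand, chr19:36119845-36120094, minus strand, chr9:102717554-102717803, plus strand, chr14:54577662-54577911, minus strand, and chr9:8004597-8004846, minus strand, in the order printed.
Ccn1: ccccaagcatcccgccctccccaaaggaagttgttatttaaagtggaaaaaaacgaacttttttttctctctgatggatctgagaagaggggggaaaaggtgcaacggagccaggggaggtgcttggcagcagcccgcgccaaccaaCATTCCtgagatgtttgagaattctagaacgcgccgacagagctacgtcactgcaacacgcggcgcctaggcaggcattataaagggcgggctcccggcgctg
Ankrd1: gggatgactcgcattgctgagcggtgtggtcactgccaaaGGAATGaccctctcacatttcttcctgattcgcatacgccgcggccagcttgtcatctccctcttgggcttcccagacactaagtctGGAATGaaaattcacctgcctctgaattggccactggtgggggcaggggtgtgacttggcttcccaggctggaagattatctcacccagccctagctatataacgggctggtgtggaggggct
Amotl2: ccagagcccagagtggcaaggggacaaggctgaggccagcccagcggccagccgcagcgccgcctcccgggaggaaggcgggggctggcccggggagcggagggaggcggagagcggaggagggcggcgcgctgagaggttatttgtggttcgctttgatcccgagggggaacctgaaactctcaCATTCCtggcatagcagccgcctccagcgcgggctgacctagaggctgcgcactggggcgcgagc
Ajuba: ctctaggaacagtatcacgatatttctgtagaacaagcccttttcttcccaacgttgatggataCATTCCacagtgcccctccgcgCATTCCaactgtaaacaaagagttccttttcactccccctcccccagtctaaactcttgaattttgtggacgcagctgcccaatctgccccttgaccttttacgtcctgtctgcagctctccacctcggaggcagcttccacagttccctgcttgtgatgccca
Yap1: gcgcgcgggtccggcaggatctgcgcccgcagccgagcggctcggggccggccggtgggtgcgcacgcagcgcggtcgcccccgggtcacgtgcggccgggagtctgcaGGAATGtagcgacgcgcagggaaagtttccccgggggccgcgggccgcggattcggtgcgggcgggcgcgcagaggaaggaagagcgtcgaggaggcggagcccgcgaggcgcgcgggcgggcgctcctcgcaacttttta

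Among matches upstream, the nearest to its gene start was that of Amotl2, whose first base lay 65 bases before it. The match in Ccn1 began 103 bases upstream, that in Yap1 141 bases, those in Ankrd1 210 and 123 bases, those in Ajuba 186 and 164 bases and that in Axl 233 bases upstream. Of the 2 starts listed for Lats2, neither had a match upstream, and 1 had a match just after the start in the window of 300 bases, where 14.7% of all windows held the motif. With that window all 7 genes had a match. The AP-1 motif TGANTCA, read on both strands, and the CArG box bound by SRF were found in none of the 7 genes' windows, against 6.75% and 1.47% of all windows upstream. The TEAD motif was thus the only 1 of the 3 found, so no matches of different motifs overlap. A match is a description of the reference letters and not a measured binding site.

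**Figure D1:**
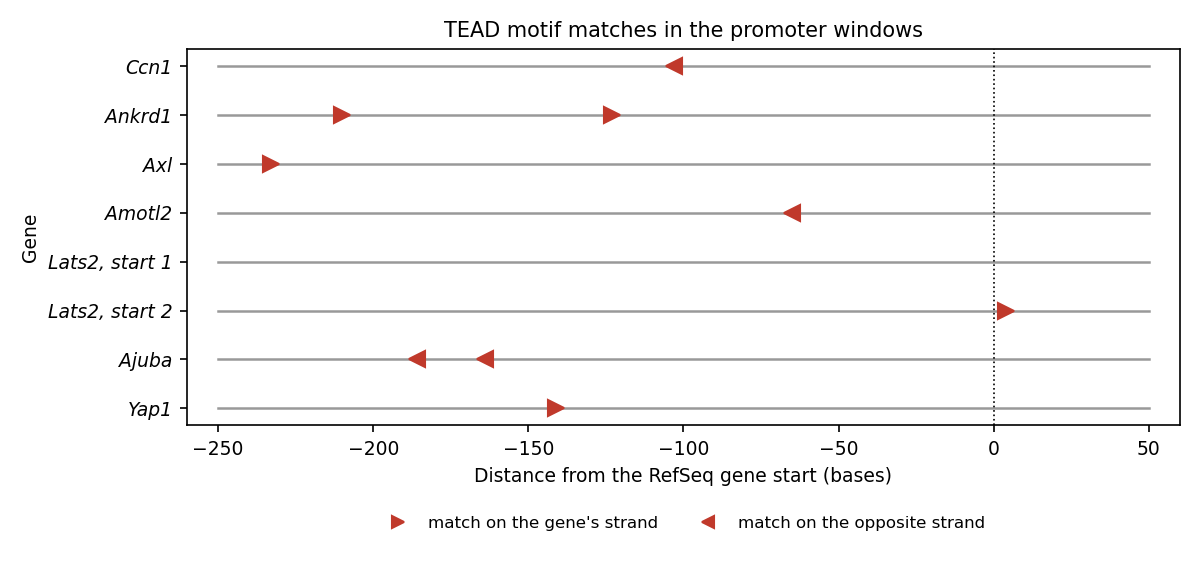
Positions of TEAD motif matches (triangles, pointing right on the gene's strand and left on the opposite strand) along the promoter windows of 7 genes; the x axis is the distance in bases from the RefSeq gene start, marked by the dotted line. Ankrd1 and Ajuba hold 2 matches each, and the 2 starts of Lats2 hold none upstream.

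Of the 10 genes, Thbs1, Ccn1 and Ccn2 encode secreted proteins of the matrix, and all were lower in KO cells. Thbs1, which encodes thrombospondin 1, an adhesive glycoprotein that activates latent TGF-beta and restrains angiogenesis, had log2 signals of 14.62 and 14.93 on the KO arrays, against 17.36 and 17.34 on the WT arrays. Both KO arrays lay 2.41 or more below the lower WT array. Thbs1 fell by 2.58 on the log2 scale, or 5.97-fold (SE 0.13, 95% interval -2.92 to -2.24, adjusted p = 0.0034), and it passed in each of the 11 alternative fits, with an adjusted p between 0.00143 and 0.048. It had the largest change of the 10 genes and stood at place 29 by size among the 943 genes called lower. In RNA from whole cultures, fewer cells of a type and less RNA per cell cannot be told apart.

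Ccn1 encodes a matricellular ligand of integrins that promotes adhesion and migration, and is among the most widely used readouts of YAP activity. Its log2 signals were 15.61 and 15.54 on the KO arrays, against 16.83 and 16.84 on the WT arrays, so the groups were far apart relative to the spread within each. Ccn1 fell by 1.26 on the log2 scale, a 2.39-fold lower signal (SE 0.09, adjusted p = 0.00627), and it passed in all 4 fits with an array left out (adjusted p between 0.0311 and 0.0429), but not when every row of the table was tested (0.0592). Its paralog Ccn2, connective tissue growth factor, had log2 signals of 11.49 and 11.08 on the KO arrays, against 12.51 and 12.50 on the WT arrays. The WT arrays were nearly equal and the KO arrays differed by more, without overlap. Ccn2 fell by 1.22 on the log2 scale, a 2.33-fold lower signal (SE 0.16, adjusted p = 0.0187). The Ccn2 call was lost without WT replicate 1 (adjusted p = 0.0762) or WT replicate 2 (0.0675), with the log2 fold change between -1.43 and -1.02 over the fits that left out 1 array.

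**Figure D2:**
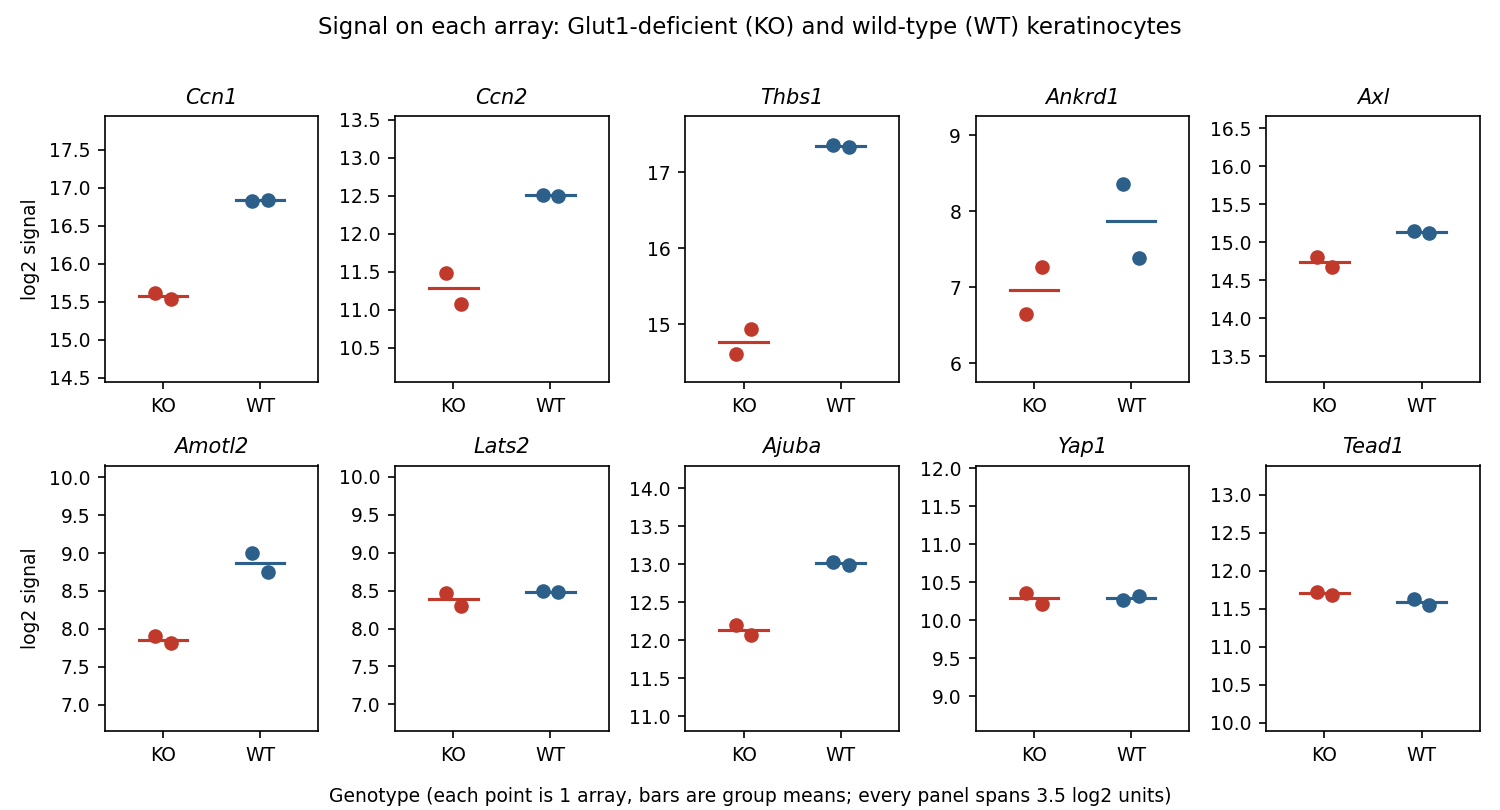
Log2 signal (y axis) of the 10 genes on each array, with KO arrays left and WT arrays right; points are arrays, bars are group means, and every panel spans the same number of log2 units. Thbs1, Ccn1, Ccn2, Amotl2 and Ajuba show clear gaps between genotypes, the arrays of Ankrd1 are scattered within each genotype, and Yap1, Lats2 and Tead1 lie level.

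The intracellular target and the receptor target did not pass. Ankrd1 encodes a nuclear and sarcomeric ankyrin repeat protein that is induced by stretch in muscle. It had log2 signals of 6.65 and 7.27 on the KO arrays, against 8.35 and 7.38 on the WT arrays. Both KO arrays were lower than both WT arrays, but the higher KO array and the lower WT array were only 0.11 apart. Its log2 fold change was -0.91 (SE 0.37, 95% interval -1.85 to 0.03, adjusted p = 0.244), and it ran from -1.39 without WT replicate 2 to -0.42 without WT replicate 1. It passed in 1 of the 11 alternatives, a block that paired the arrays crosswise, which the labels do not give (adjusted p = 0.0405). Axl, a receptor tyrosine kinase of the TAM family that binds Gas6, had log2 signals of 14.80 and 14.68 on the KO arrays, against 15.14 and 15.13 on the WT arrays. The groups did not overlap, with a log2 fold change of -0.40 (SE 0.10, 95% interval -0.65 to -0.14). The unadjusted p was 0.00955 and the adjusted p = 0.0852, between 0.0563 and 0.323 in the 11 alternatives.

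The regulators that are also targets divided. Amotl2, an angiomotin-family scaffold of cell junctions that binds YAP and promotes its inhibition, had log2 signals of 7.91 and 7.81 on the KO arrays, against 8.99 and 8.75 on the WT arrays. The lower WT array exceeded the higher KO array by 0.83. Amotl2 fell by 1.01 on the log2 scale, a 2.01-fold lower signal (SE 0.12, adjusted p = 0.0171). Its call was lost without KO replicate 1 (adjusted p = 0.078), KO replicate 2 (0.0629) or WT replicate 1 (0.0737). Lats2, the second LATS kinase and a feedback inhibitor of YAP, had log2 signals of 8.47 and 8.30 on the KO arrays, against 8.49 and 8.48 on the WT arrays. One KO array was level with the WT arrays. Its log2 fold change was -0.10 (SE 0.11, 95% interval -0.37 to 0.17, adjusted p = 0.699), so a fall as large as that of Amotl2 lay outside the interval.

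Ajuba encodes a LIM-domain protein of adherens junctions that binds and restrains LATS kinases and so favours YAP. Its log2 signals were 12.20 and 12.06 on the KO arrays, against 13.03 and 12.99 on the WT arrays, with each pair of arrays close together. Ajuba fell by 0.88 on the log2 scale, a 1.84-fold lower signal (SE 0.10, adjusted p = 0.0154). Without KO replicate 1, WT replicate 1 or WT replicate 2 the adjusted p was 0.06, 0.0826 and 0.0674, while the log2 fold change stayed between -0.95 and -0.81.

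Transcripts of the coactivator and of its DNA-binding partner did not pass. Yap1 had log2 signals of 10.36 and 10.22 on the KO arrays, against 10.27 and 10.32 on the WT arrays. It was the only one of the 10 genes whose groups overlapped. Its log2 fold change was -0.01 (SE 0.10, 95% interval -0.27 to 0.25, adjusted p = 0.981). Tead1, one of the TEAD factors that recruit YAP to DNA, had log2 signals of 11.73 and 11.68 on the KO arrays, against 11.63 and 11.55 on the WT arrays. Its log2 fold change was 0.11 (SE 0.10, 95% interval -0.13 to 0.36, adjusted p = 0.601).

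In all, 5 of the 10 genes fell (Thbs1, Ccn1, Ccn2, Amotl2 and Ajuba), none rose and 5 did not pass. Of all genes tested, 3.13% were called lower and 4.12% higher. Among the 14270 genes whose mean signal exceeded the highest background floor, as that of all 10 members did, 6.27% were called lower and 8.33% higher. The groups did not overlap in 9 of the 10 genes, against 49.7% of all genes and 65.5% of those above the floor. The median log2 fold change was -0.89 over the 10 genes and -0.01 over all genes tested. Leaving out 1 array left 2 to 4 of the 10 passing, all of them lower: 2 without WT replicate 1, 3 without KO replicate 1 or WT replicate 2, and 4 without KO replicate 2. Over the same fits the number of all rows called fell to between 314 and 1214, against 2209 with all arrays. When all 72688 rows of the table were tested together, Thbs1 was the only one of the 10 that passed.

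**Figure D3:**
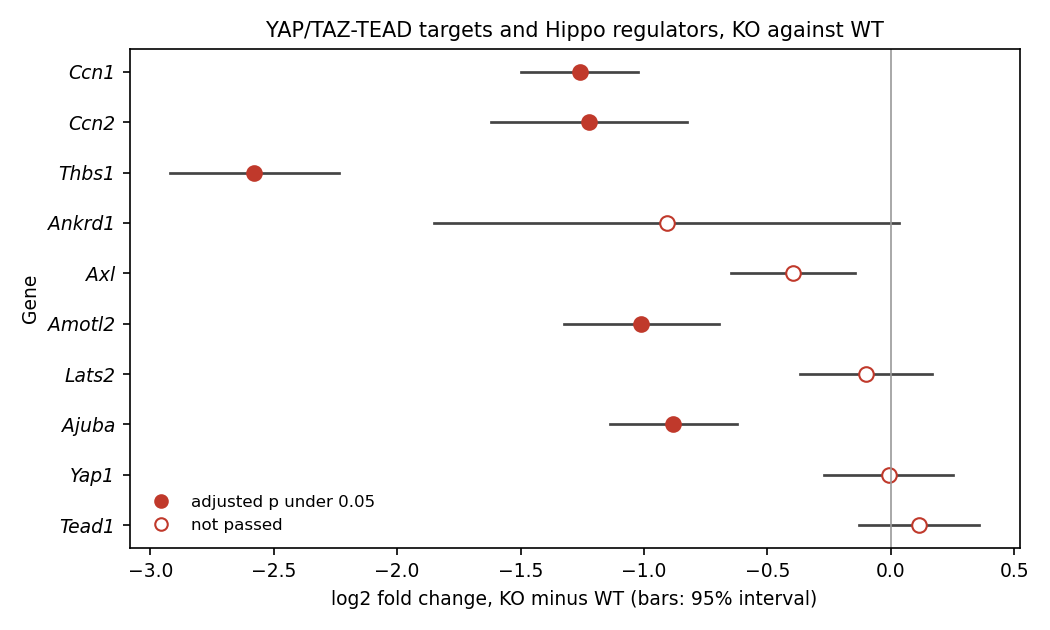
Log2 fold change, KO minus WT (x axis), of the 10 genes with 95% intervals as bars; filled points passed at an adjusted p under 0.05. The 5 filled points run from -2.58 for Thbs1 to -0.88 for Ajuba, and the intervals of Lats2, Yap1 and Tead1 lie around 0.

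The rest of the pathway was described with lists of textbook members. Every count of called genes below stands beside 6.27% lower and 8.33% higher among all genes above the floor. The lists were counted whole, however. Of their 122 genes, 15 lay at or below the floor in both genotypes and stay in the counts and medians. In the core kinase cassette, which holds Stk4, Sav1, Mob1a, Mob1b, Lats1 and Lats2, 0 of 6 measured genes passed in limma's test, and none had an unadjusted p under 0.05. Their log2 fold changes ran from -0.41 to 0.19. The MOB adaptor gene Mob1a had log2 signals of 12.50 and 12.33 on the KO arrays, against 12.41 and 12.51 on the WT arrays. Lats1, the first LATS kinase, had 11.88 and 11.89, against 11.97 and 11.81. Both genes thus overlapped between genotypes. Among kinases that act above or beside the MST kinases 0 of 10 passed and 2 had an unadjusted p under 0.05. One of these was Map4k4, which can phosphorylate LATS (log2 fold change -0.34, SE 0.09, adjusted p = 0.108). The other was Taok2, at -0.44 (SE 0.10, adjusted p = 0.0743), which passed as lower when only the brighter rows were tested (0.0487). Taok1, an activator of MST kinases, was at -0.20 (SE 0.22, adjusted p = 0.711).

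Of 13 membrane and junction inputs 2 fell, none rose and 11 did not pass, with a median log2 fold change of 0.19. That median is the value of Fat4, which lay at or below the floor in both genotypes, as did Dchs1. For all genes above the floor the shares were 6.27% lower and 8.33% higher. The genes that fell were Amotl2 and Frmd6, a FERM-domain protein of the cell cortex that activates the pathway. Frmd6 had log2 signals of 11.36 and 11.43 on the KO arrays, against 11.89 and 11.95 on the WT arrays (log2 fold change -0.52, SE 0.10, adjusted p = 0.0402). The groups were separate, but the call was lost in all 4 fits with an array left out (adjusted p between 0.0839 and 0.195). The apical polarity gene Crb3 had log2 signals of 6.95 and 6.60 on the KO arrays, against 6.12 and 6.12 on the WT arrays, and did not pass (log2 fold change 0.66, SE 0.14, adjusted p = 0.0602), but passed as higher without KO replicate 2 (0.0477) and in the test of the brighter rows (0.0382). Amotl1, another angiomotin, was at -0.13 (adjusted p = 0.73) and the giant cadherin gene Fat1 at 0.11 (adjusted p = 0.625). Among LIM proteins that restrain LATS and subunits of the STRIPAK phosphatase complex, Ajuba was the gene that fell and 7 of 8 did not pass. The STRIPAK genes Strn3 and Slmap were at -0.16 and -0.04 (adjusted p = 0.449 and 0.923).

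Of 10 coactivator, TEAD and VGLL genes 1 rose, none fell and 9 did not pass. That count lay near the shares of all genes above the floor, 8.33% higher and 6.27% lower. The rise was that of Wwtr1, which encodes TAZ, the paralog of YAP. Wwtr1 had log2 signals of 9.66 and 9.49 on the KO arrays, against 8.96 and 8.92 on the WT arrays. Both KO arrays were higher than both WT arrays, and the log2 fold change was 0.63 (SE 0.11, adjusted p = 0.0329). Its call was lost in all 4 fits with an array left out (adjusted p between 0.058 and 0.149). Vgll3, a cofactor that binds TEAD factors, had log2 signals of 10.96 and 11.53 on the KO arrays, against 12.09 and 11.91 on the WT arrays. Its log2 fold change was -0.76 (SE 0.21, adjusted p = 0.104, and 0.0477 without KO replicate 2). That Wwtr1 and Yap1 changed by different amounts was not tested.

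**Figure D4:**
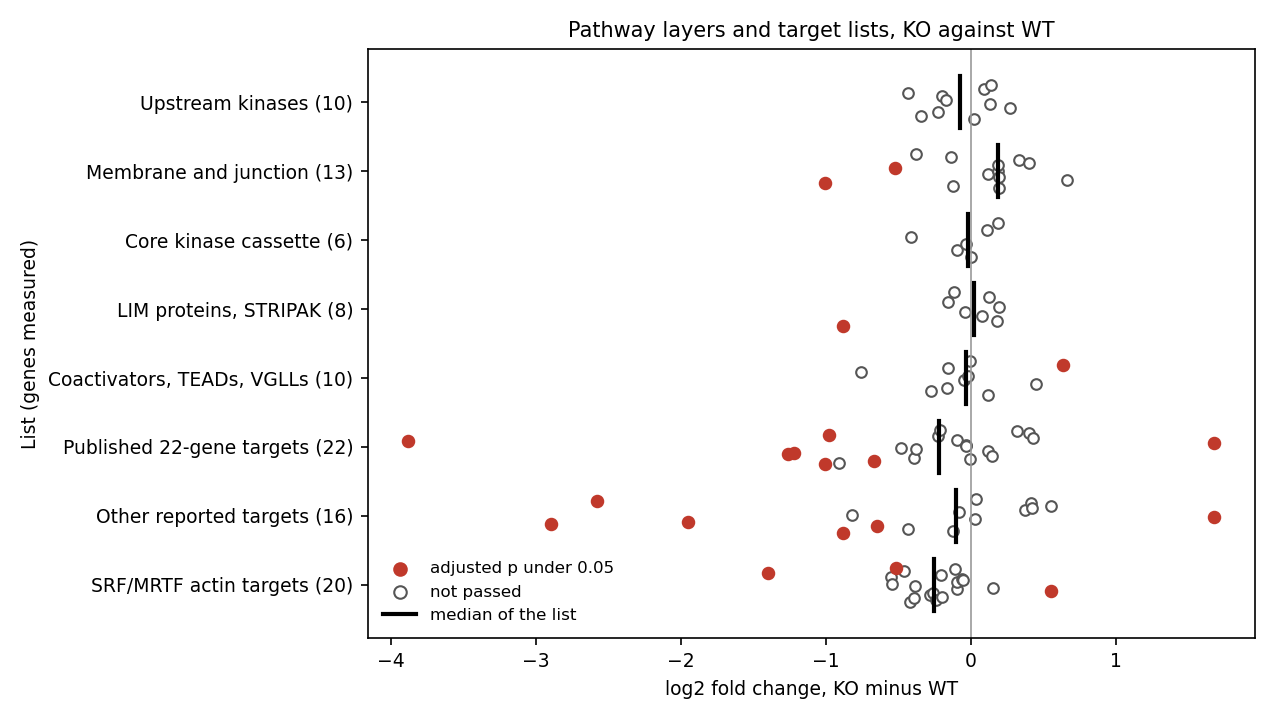
Log2 fold change, KO minus WT (x axis), of every measured gene in 8 lists (rows, with the number of genes measured); filled points passed at an adjusted p under 0.05 and the black bar is the median of the list. The kinase lists hold no filled point, and the filled points of the target lists run from -3.88 for Igfbp3 to 1.68 for Gadd45a.

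A published list of 22 YAP and TAZ targets from human tumours, matched to mouse genes by symbol, contains Ccn1, Ccn2, Ankrd1, Axl, Amotl2 and Lats2. Of the 22 genes 6 fell, 1 rose and 15 did not pass, with a median log2 fold change of -0.22. Shares among all genes above the floor were 6.27% lower and 8.33% higher. Without the 6 genes named, 3 of 16 fell, 1 rose and 12 did not pass, with a median of -0.03. Igfbp3, which encodes a binding protein of insulin-like growth factors, had log2 signals of 9.26 and 9.83 on the KO arrays, against 13.59 and 13.26 on the WT arrays (log2 fold change -3.88, SE 0.22, adjusted p = 0.00427). Nuak2, a kinase of the AMPK family that supports actomyosin tension, had 7.93 and 8.04 on the KO arrays, against 9.07 and 8.85 on the WT arrays. Nuak2 fell by 0.98 on the log2 scale (SE 0.12, adjusted p = 0.0171). Both genes were separate between genotypes, and Igfbp3 passed whichever array was left out, whereas Nuak2 did not pass without KO replicate 1, KO replicate 2 or WT replicate 1 (adjusted p = 0.088, 0.0533 and 0.0778).

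The third fall outside the 10 genes was that of Arhgef17, an exchange factor of RhoA, at -0.67 (adjusted p = 0.0287, and 0.0756 to 0.137 with 1 array left out). The gene that rose was Gadd45a, a stress-response gene that ATF4 and p53 also induce. It had log2 signals of 9.54 and 9.22 on the KO arrays, against 7.65 and 7.76 on the WT arrays (log2 fold change 1.68, SE 0.14, adjusted p = 0.00756). F3, which encodes tissue factor, did not pass at -0.48 (adjusted p = 0.0586). It passed after quantile normalization (adjusted p = 0.0174) and in the test of the brighter rows (0.0385). Myof went the other way, at 0.43 (SE 0.10, adjusted p = 0.0662), and passed as higher in the test of the brighter rows (0.044). The published list was therefore called in both directions in these cells. With 1 array left out 3 to 5 of its 22 genes passed.

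Of 16 further genes reported as YAP or TAZ targets, Thbs1 and Ajuba among them, 5 fell, 1 rose and 10 did not pass (median log2 fold change -0.10). Calls over all genes above the floor were 6.27% lower and 8.33% higher. Edn1, the precursor of the vasoactive peptide endothelin 1, had log2 signals of 12.07 and 12.40 on the KO arrays, against 14.22 and 14.15 on the WT arrays, and fell by 1.95 on the log2 scale (SE 0.14, adjusted p = 0.00556). Col8a1, a short-chain collagen, had 5.02 and 5.60 on the KO arrays, against 8.34 and 8.07 on the WT arrays, and fell by 2.90 (SE 0.22, adjusted p = 0.00639). Both genes lay above the floor on every array, with the KO arrays well below the WT arrays. On KO replicate 1, however, Col8a1 was close to that array's floor of 4.87, so the size of its fall is uncertain. Birc5, which encodes the mitotic protein survivin, fell by 0.65 (adjusted p = 0.0268), while Fstl1, a secreted glycoprotein, rose by 1.67 (adjusted p = 0.0292). The Birc5 call was lost in all 4 fits with an array left out (adjusted p between 0.0634 and 0.146), and that of Fstl1 without KO replicate 2, WT replicate 1 or WT replicate 2 (0.0533, 0.0708 and 0.0917). Of the brightest genes that did not pass, the cyclooxygenase gene Ptgs2 was at 0.42 (adjusted p = 0.169) and the cytokinesis gene Anln at -0.44 (adjusted p = 0.0696). Anln passed as lower in the test of the brighter rows (0.0458).

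Actin-linked targets of SRF and its MRTF coactivators, several of which respond to tension as YAP targets do, fell in 2 of 20 genes, rose in 1 and did not pass in 17. These counts lay near the shares of all genes above the floor, 6.27% lower and 8.33% higher. The log2 fold change was below 0 in 18 of the 20, with a median of -0.25. Tpm1, an actin-binding tropomyosin, had log2 signals of 11.37 and 11.52 on the KO arrays, against 12.89 and 12.80 on the WT arrays (log2 fold change -1.40, SE 0.11, adjusted p = 0.00644). The arrays of each genotype were close together, and Tpm1 passed whichever array was left out. Vcl, which encodes the focal adhesion protein vinculin, was at -0.52 (adjusted p = 0.0371) and the LIM protein gene Fhl1 at 0.55 (adjusted p = 0.0348). Both calls were lost in all 4 fits with an array left out (adjusted p between 0.0896 and 0.18 for Vcl and between 0.0859 and 0.177 for Fhl1). The beta-actin gene Actb was at -0.40 (adjusted p = 0.137) and passed after quantile normalization (adjusted p = 0.0477), and Tpm4 was at -0.11 (adjusted p = 0.677).

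Relatives of the members were counted by family, beside shares of 6.27% lower and 8.33% higher among all genes above the floor. Several relatives lay at or near the floor, where a fall could not be seen. In the CCN family 3 of 6 genes fell, Ccn1, Ccn2 and Ccn4, and 3 did not pass. Ccn4, also called Wisp1, had log2 signals of 4.49 and 4.60 on the KO arrays, both at or below the floor, against 6.02 and 5.57 on the WT arrays. It was thus at least 2.06-fold lower in KO cells, measured against the floor (adjusted p = 0.0208), and its call was lost without KO replicate 1, KO replicate 2 or WT replicate 1 (adjusted p = 0.107, 0.0695 and 0.0559). Ccn3 and Ccn6 lay at or below the floor in both genotypes, and Ccn5 lay near it. Among thrombospondins Thbs1 was the gene that fell and 4 of 5 did not pass. Thbs2 had 5.70 and 5.92 on the KO arrays, against 5.38 and 5.30 on the WT arrays (log2 fold change 0.47, adjusted p = 0.0815), and Thbs4 lay near the floor. Thbs3 and Comp lay at or below the floor in both genotypes. Thbs2 was thus the only other thrombospondin gene above the floor on every array.

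Gas6, the ligand of Axl and of the other TAM receptors, had log2 signals of 10.04 and 9.50 on the KO arrays, against 8.25 and 8.73 on the WT arrays. It rose by 1.28 (SE 0.24, adjusted p = 0.0443), the only 1 of 5 TAM receptor and ligand genes to pass. The Gas6 call was lost in all 4 fits with an array left out (adjusted p between 0.0593 and 0.148) and after quantile normalization (0.0528). The second ligand gene, Pros1, was at 0.01 (adjusted p = 0.983). Of the relatives of Ankrd1, Ankrd23 was higher, with log2 signals of 6.13 and 6.06 on the KO arrays, against 5.57 and 5.62 on the WT arrays (log2 fold change 0.50, adjusted p = 0.0443), and that call was lost in all 4 fits with an array left out (adjusted p between 0.0886 and 0.223). Ankrd2 lay at background in both genotypes.

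Cell-surface receptors of thrombospondin 1 were called in 2 of 8 genes, 1 higher and 1 lower, and 6 did not pass, against 8.33% higher and 6.27% lower among all genes above the floor. The endocytic receptor gene Lrp1, which also clears thrombospondins, had log2 signals of 8.27 and 8.91 on the KO arrays, against 7.05 and 6.95 on the WT arrays (log2 fold change 1.59, SE 0.22, adjusted p = 0.0225). The integrin subunit gene Itgav had 13.91 and 14.29 on the KO arrays, against 14.97 and 15.04 on the WT arrays (log2 fold change -0.90, SE 0.15, adjusted p = 0.0322). Without WT replicate 1 or WT replicate 2 neither passed (adjusted p = 0.0747 and 0.0741 for Lrp1 and 0.112 and 0.122 for Itgav), and Itgav was also lost without KO replicate 1 (0.0868). Itgb1 was at -0.35 (adjusted p = 0.108, and 0.0284 after quantile normalization). The syndecan gene Sdc1 was at -0.61 (adjusted p = 0.0649, and 0.0412 in the test of the brighter rows). The integrin subunit gene Itgb3 went the other way, at 0.90 (SE 0.19, adjusted p = 0.06). It passed as higher in the test of the brighter rows (0.0374) and with a replicate block (0.0422).

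Thbs1, Ccn1, Ccn2 and Axl are also expressed by fibroblasts and endothelial cells, so markers of other cell types are given beside them. Of 7 fibroblast markers 1 rose, 1 fell and 5 did not pass. The log2 fold change was above 0 in 6 of the 7, with a median of 0.22, and below 0 in Fbln1. The groups did not overlap in any of the 7, nor in 49.7% of all genes and 65.5% of those above the floor. The summed signal of the list, on the log2 scale, was 8.13 to 8.39 on the KO arrays, against 8.42 to 8.43 on the WT arrays. Fbln1, the marker that fell, was the largest part of this sum on every array. Col3a1 and Lum lay at or below the floor in both genotypes, and Col1a1 close to it at 5.11 and 5.14 on the KO arrays, against 4.87 and 4.93 on the WT arrays. Fbln1, the brightest of the list, had 6.82 and 7.12 on the KO arrays, against 7.77 and 7.80 on the WT arrays (adjusted p = 0.0293, lost without KO replicate 1, WT replicate 1 or WT replicate 2 at 0.089, 0.118 and 0.116). The marker that rose was Dcn, at least 2.14-fold higher in KO cells against the floor (adjusted p = 0.025).

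Of 6 endothelial markers 1 rose, the receptor gene Kdr, with 10.14 and 9.51 on the KO arrays, against 6.11 and 6.34 on the WT arrays (adjusted p = 0.00508). The list summed to 9.66 to 10.25 on the KO arrays, against 7.24 to 7.40 on the WT arrays, while Cdh5, Tek, Emcn and Tie1 lay at or below the floor in both genotypes. Pecam1 was close to it at 4.37 and 4.26 on the KO arrays, against 4.60 and 4.66 on the WT arrays. All 6 immune markers, Ptprc and Csf1r among them, were at or below the floor in both genotypes. Smooth muscle and pericyte markers passed in 0 of 6 genes in limma's test, with 1 at an unadjusted p under 0.05, and summed to 11.24 to 11.53 on the KO arrays, against 11.59 to 11.63 on the WT arrays. Nearly all of this was Acta2, since Des, Rgs5 and Cspg4 lay at or below the floor and Pdgfrb was close to it. Pdgfrb was the 1 with an unadjusted p under 0.05, and it was higher in KO cells (log2 fold change 0.42, SE 0.10, adjusted p = 0.0706). In the test of the brighter rows Pdgfrb passed as higher (0.0467). The log2 fold change was below 0 in the other 5. Melanocyte markers were higher on both KO arrays in 6 of 6 genes, 1 of which, Pmel, passed. Among all genes above the floor 65.5% had groups that did not overlap, in either direction. The melanocyte markers summed to 11.12 to 12.37 on the KO arrays, against 10.02 to 10.53 on the WT arrays. All 6 had an unadjusted p under 0.05 in limma's test, and Mitf passed as higher in the test of the brighter rows (adjusted p = 0.0491). Tyrp1 had 12.11 and 10.80 on the KO arrays, against 10.25 and 9.67 on the WT arrays, and Dct had 9.22 and 8.04, against 7.06 and 6.53 (adjusted p = 0.136 and 0.067). Both passed as higher without KO replicate 2 (adjusted p = 0.0477 for Tyrp1 and 0.0378 for Dct) and with a replicate block (0.015 and 0.00729), and Dct also in the test of the brighter rows (0.0411). The part of melanocytes in the results for the 10 genes was not tested.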

How the data were processed

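The authors deposited log2 signals per transcript cluster, which the labels name gene-level SST-RMA signals. Per the submitters' processing notes the tools were Affymetrix Expression Console and RMA. Their versions, the annotation release and the arrays normalized together are not given in the sources used. RMA is meant to equalise array distributions, which removes a shift common to most genes. The deposited values were not fully equal, since quantile normalization still moved some bright genes. On the log2 scale Ccn1 went from -1.26 to -1.40, F3 from -0.48 to -0.75 and Ptgs2 from 0.42 to 0.19. Ccn2 moved the other way, from -1.22 to -1.18. A platform table gave exactly 1 gene symbol to 30604 of 72688 rows, and Entrez identifiers matched 22818 of them to RefSeq (GRCm38.p6), which was used for names. Where a genotype lay at or below the background floor on both arrays, a fold was given as a bound against that floor, on the log2 scale of the deposited values.

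KO and WT arrays were compared over these 30604 rows by limma 3.58.1 (two-sided, lmFit then eBayes at default settings) in R 4.3.3, with Benjamini-Hochberg adjustment over all of them. The procedure was tested on simulated data. The 10 genes, 13 pathway and target lists and 6 marker lists were chosen with earlier results of these data known, so counts over them are descriptions. The genes named are the 10, Slc2a1, up to 4 called genes with the smallest p and up to 2 uncalled genes of highest mean signal from each pathway list, and the 2 brightest of each marker list. Arhgef17, Birc5, Crb3, Fstl1, Itgb3, Mitf, Myof, Taok2, Dcn, Pmel, the keratinocyte markers and the floor-level genes were named after their values were seen. Listed genes with no row of a single symbol were not analysed here. Arrays with the same replicate number were not paired, since plates were joined at random and the correlation of their deviations from the group means was -0.23. The alternatives changed the normalization, the rows tested, the variance moderation, the block and the arrays.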

Additional observations from a re-analysis of the deposited data

How the results depend on the processing

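Of 2209 rows called, the count was 2225 after quantile normalization, 2103 after centring each array on its median, 3043 of 15302 in the brighter part of the rows and 1929 with trend and robust moderation. With every row of the table tested, control rows included, it was 74, with 1 of the 10 genes (Thbs1) and 2 of the 122 genes of the pathway and target lists. With 1 array left out the counts ran from 314 to 1214 rows, from 2 to 4 of the 10 genes, against 5, and from 7 to 13 of the 122 listed genes, against 23. By list they ran from 3 to 5 published targets, against 7, from 3 to 4 other targets, against 6, from 1 to 2 CCN genes, against 3, from 0 to 1 membrane input, against 2 (without KO replicate 2 this was Crb3, called higher), and 1 actin-linked target, against 3. The cause was not tested, though fewer arrays leave fewer residual degrees of freedom and the lone array is assumed to vary like the other genotype. A replicate block gave 1849 rows, 5 of the 10 genes and 19 listed genes, and no paired reading is drawn from it. With the block Frmd6, Wwtr1, Vcl, Fhl1 and Ankrd23 no longer passed, and Tyrp1, Dct and Itgb3 did. Trend and robust moderation also ended the calls of Frmd6, Vcl and Ankrd23 (adjusted p = 0.0515, 0.0514 and 0.0531) and quantile normalization those of Gas6 and Ankrd23 (0.0528 and 0.0556). The crossed pairing, added after the data were seen, gave 2039 rows, 6 of the 10 genes (Ankrd1 added) and 19 listed genes. No called gene that is named changed sign in these fits. No other row held the symbol of any of the 10 genes, so the choice of row could not be varied. Thbs1 alone of the 10 passed in every alternative.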
